A study of Saccharomyces cerevisiae with 8 samples.

Results

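The 4 libraries of replicate series 1 were compared with the 4 libraries of replicate series 0, one of each condition, so the comparison took in all 8 libraries of the study and held 4 pairs, each matched by condition. The study's methods state that the replicates of a condition were made by different experimenters, while the labels give only the number 0 or 1. Whether one experimenter made all libraries of a number is not stated, so experimenter, culture day and library preparation cannot be told apart. All cells were the a/α diploid Saccharomyces cerevisiae strain BY4743 of the S288C background, grown in synthetic complete medium without uracil and harvested in logarithmic phase. All carried the high-copy URA3 plasmid pRS426, either empty or with TIP41 or PDE2. The conditions were ρ+ cells with empty vector and no ethidium bromide (EtBr), and 3 kinds of ρ0 cells that had lost mitochondrial DNA (mtDNA) during 24 h in 25 µg/ml EtBr: carrying the empty vector, TIP41 on the plasmid, or PDE2 on the plasmid. The question was which genes and functions varied between the culture series when the condition was held fixed.

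Cultures of one strain can differ between experimenters in cell density at harvest, medium lot, trace metals and handling time. Yeast responds to such differences through a few well-known regulons. Aft1 and Aft2 switch on iron uptake genes when iron-sulfur clusters or iron are scarce, a regulon that mtDNA loss also engages. Protein kinase A and TORC1 set ribosomal protein genes against storage carbohydrate genes, the general amino acid control and nitrogen catabolite repression answer to amino acid and nitrogen supply, and the retrograde pathway answers to mitochondrial state. PDE2 encodes the phosphodiesterase that breaks down cAMP, and TIP41 a regulator of TORC1-linked phosphatases.

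Fragments assigned to genes numbered 1389579, 2334101, 1945961 and 3053408 in series 1 (ρ+ vector, ρ0 vector, ρ0 TIP41 and ρ0 PDE2, the order used for every list of values here) and 4884282, 2761861, 3000914 and 1796286 in series 0. The mean was 2180760 in series 1 and 3110840 in series 0, and an exact two-sided sign-change permutation test over the 4 pairs gave p = 0.5, where the smallest p that 4 pairs allow is 0.125. Across 7 such library measures the share of fragments from structural and other non-coding RNA genes was higher in 4 of 4 pairs, with 0.177% ± 0.033 in series 1 and 0.148% ± 0.0331 in series 0 (SD, n = 4 each; exact permutation p = 0.125, adjusted 0.438). LEU2, deleted in this strain, had no fragment in any library, and the a-factor genes MFA1 and MFA2, silent in a/α diploids, had at most 1. Other genes that are mating-type- or haploid-specific had more: SAG1 had 75 to 218 fragments in series 1 and 103 to 301 in series 0, FAR1 had 52 to 224 in series 1 and 135 to 308 in series 0, and STE2 had 13 to 52 in series 1 and 20 to 58 in series 0. Fragments from mtDNA numbered 6 in series 1 and 9 in series 0 in ρ+ libraries and 0 in every ρ0 library, so mtDNA state was barely measured in this polyadenylated RNA.

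Of 5832 genes tested, 98 (1.68%) differed between the series at an adjusted p under 0.05 by edgeR's quasi-likelihood test with condition as a block: 61 were higher in series 1 (1.05%) and 37 lower (0.634%). The median log2 fold change over all genes was -0.01, and 707 genes had an unadjusted p under 0.05. Of the 98, 90 had one direction in all 4 conditions, against 1099 (18.8%) of all genes tested. In 35 of the 98 the libraries of the series did not overlap, against 169 of all 5832 genes. The 98 were chosen by a test on these same differences, so both counts are partly built in and give no separate support. In the same model, with series as a term, 1160 genes (19.9%) differed between ρ0 and ρ+ vector cells. Only the ρ0 cells had EtBr, so loss of mtDNA and EtBr exposure cannot be told apart here. Among ρ0 cells, PDE2 changed 571 genes (9.79%) and TIP41 114 (1.95%). The series and TIP41 comparisons thus called similar numbers of genes in this model, but without the series term the TIP41 count was 24.

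The genes that differed fell into 2 kinds by where they lie. Of the 933 tested genes that share a locus with another gene in the deposited annotation, 36 (3.86%) were called, 21 higher and 15 lower, and 18 of these changed by more than 2-fold. Of the 4899 genes alone at their locus, 62 (1.27%) were called, 40 higher (0.816%) and 22 lower (0.449%), and only YDR042C at 1.75 and YLR035C-A at -1.94 on the log2 scale changed by more than 2-fold, both with few fragments. The plot of fold change against gene level sets out both kinds: genes alone at their locus formed a narrow band, with 0.37 the smallest called size, and all but 2 of the called changes beyond 2-fold came from shared loci.

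**Figure D1:**
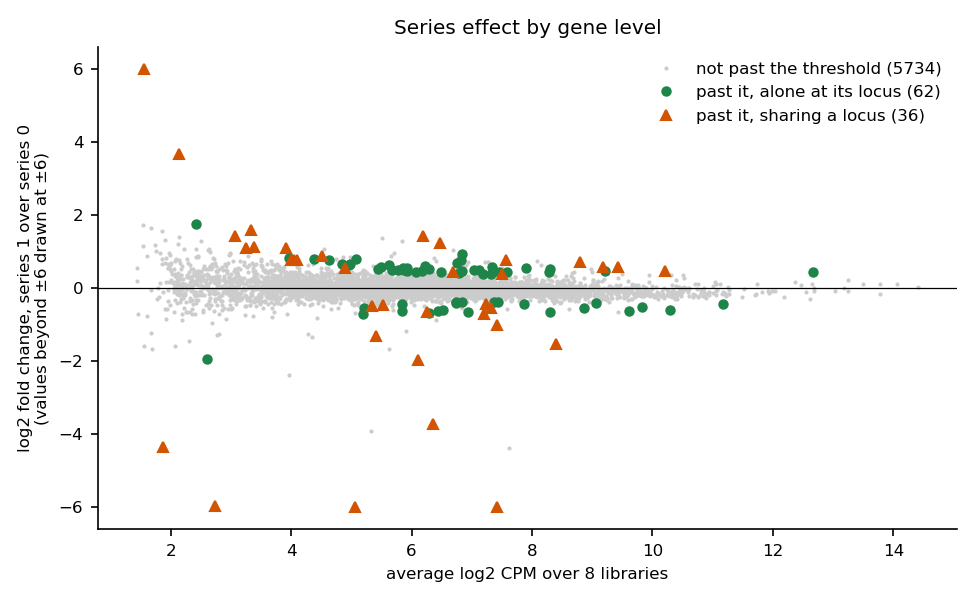
Log2 fold change of series 1 over series 0 (y axis; values beyond ±6 drawn at ±6) against average log2 CPM over 8 libraries (x axis) for each of 5832 genes, with grey dots for genes not past the threshold, green circles for the 62 called genes alone at their locus and orange triangles for the 36 called genes that share one. The green circles keep within ±1.94, while orange triangles reach the edges of the plot.

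The largest series difference was in HYP2, which encodes the aerobic form of translation factor eIF5A, an abundant and normally essential protein. HYP2 (chromosome V, 85676 to 86149, R64-2-1) lies in a merged locus with MTC7 and with YEL034C-A, an open reading frame that RefSeq does not annotate. HYP2 was given 0 fragments in every library of series 1 and 2087.2, 650.5, 991.6 and 551.7 fragments in series 0. YEL034C-A was given 2783, 1520, 2114 and 3260 fragments in series 1 and 7867.8, 2354.5, 3363.4 and 1650.3 in series 0. The share of the locus given to HYP2 was thus 0% in all libraries of series 1 and 20.3% to 24.4% in series 0 (mean 22.0% ± 1.77, SD, n = 4), with no overlap, while the MTC7 share was 2.58% to 3.18% in series 1 and 2.73% to 3.05% in series 0. With a floor of 3 fragments per library, HYP2 was at least 194-fold lower in series 1 in the ρ0 vector pair and at least 322-fold lower in the ρ0 PDE2 pair, the lowest and highest of the 4 bounds. Its adjusted p was 4.27e-24 by edgeR. The sum over the locus changed by -0.37 ± 0.11 (log2, SE) with an adjusted p of 0.089, which did not pass.

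Other shared loci also differed between the series in how their fragments were divided. DID2, an ESCRT-III-associated gene of endosomal sorting (chromosome XI, 507939 to 508553), held between 0.0016% and 0.014% of the locus it shares with OPI8 in series 1 and 53.8% to 62.0% in series 0, and OPI8 rose by 1.42 (adjusted p = 3.49e-11). DID2 itself had at most 0.03 fragments in each library of series 1 and 285.2, 170.9, 159.3 and 119.6 in series 0 (adjusted p = 2.36e-17), at least 27.8- to 69.8-fold lower at the same floor. The DID2 locus sum changed by 0.10 ± 0.10 (adjusted p = 0.755). YCR087C-A (chromosome III, 264006 to 264467) held 0.015%, 0.039%, 0.86% and 8.93% of its locus in series 1 and 59.8%, 54.8%, 54.5% and 57.2% in series 0, the rest going to YCR087W, and this locus sum changed by 0.07 (adjusted p = 0.858). At loci of the ribosomal protein genes RPL22A and RPL28, less of the locus went in series 1 to the reading frame that systematic names place on the other strand. BUD28, opposite RPL22A, held 1.68% ± 0.63 in series 1 and 19.2% ± 1.20 in series 0. YGL102C, opposite RPL28, held 11.1% ± 2.92 in series 1 and 25.1% ± 1.64 in series 0. In the other direction YOR331C, opposite the vacuolar ATPase subunit gene VMA4, held 45.7% ± 4.32 in series 1 and 28.1% ± 0.49 in series 0 (SD, n = 4 each). In the plot of locus shares by library the series do not overlap in any of these 6 loci, which were chosen after their values were seen.

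**Figure D2:**
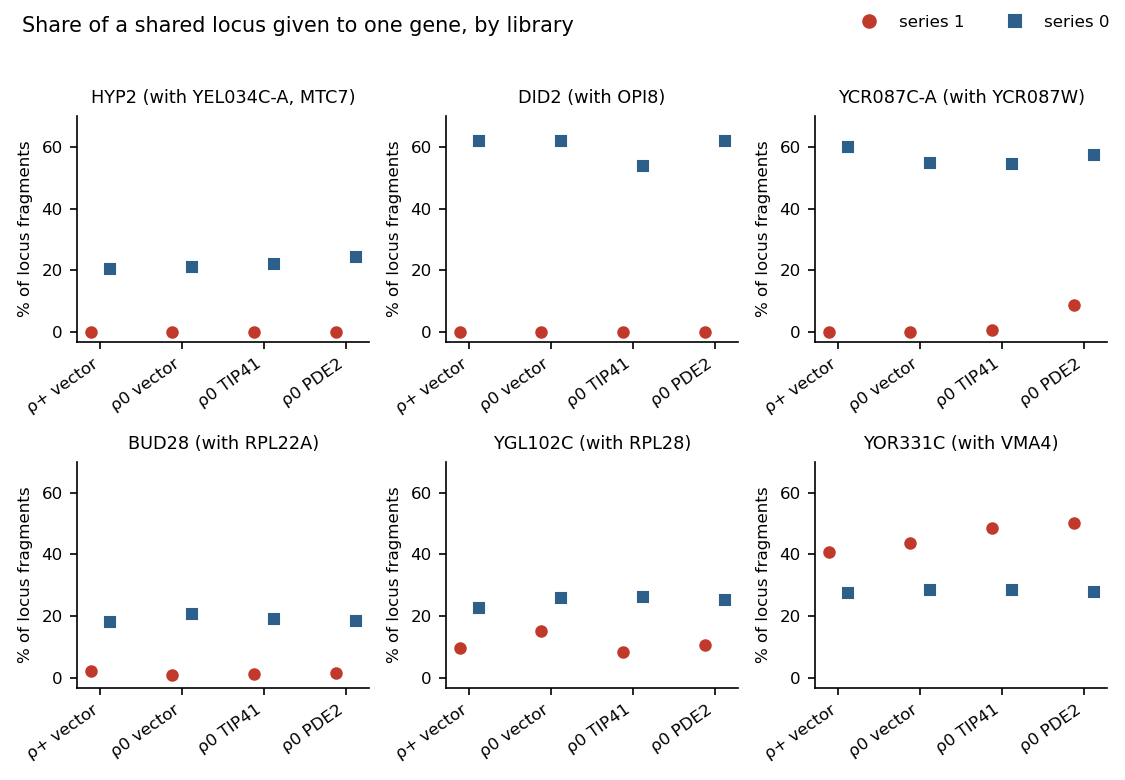
Share of the fragments of a merged locus (%, y axis) given to the named gene in each library, by condition (x axis), with red circles for series 1 and blue squares for series 0; the other genes of the locus stand in brackets. HYP2 and DID2 sit at or near 0% in all series 1 libraries and above 20% in all series 0 libraries, whereas YOR331C sits higher in series 1.

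Over the 247 shared loci with at least 100 fragments in every library and more than 1 gene above 1% of them, shares did not overlap between the series in 45 (18.2%), and in 10 of these the mean share differed by more than 10 percentage points. Of 33 shared loci that held a called gene, the summed count was called in 7, among them ARN2 with YHL046W-A, and the loci of RPL7B, CCC2, PAR32 and RSF2. All 22 called reading frames that RefSeq does not annotate lay in shared loci, but the share among all such frames tested was not counted. With counts summed per locus, an alternative added after the data were seen, 72 of 5475 loci (1.32%) were called, 46 higher and 26 lower. Of the deposited estimates above 0, 12.3% were not whole numbers (tolerance 0.001), so part of the fragments was divided by estimation. No strand setting for counting is given in the sources used here, and the part it played in these shares was not tested.

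The iron regulon had more called members than any other of 49 gene lists. Of 28 tested members, 10 rose in series 1, where 1.05% of all genes did, none fell and all 28 fold changes were above 0, with a median of 0.39 against -0.01 for all genes. The members above 0 numbered 27 in the ρ+ pair, 27 in the ρ0 vector pair, 25 in the ρ0 TIP41 pair and 24 in the ρ0 PDE2 pair, where all genes were above 0 in 48.9% to 50.1% of cases. The medians were 0.21, 0.57, 0.39 and 0.34 in that order, so the ρ+ pair differed least. The count of 10 varied with the pairs used: it was 15 without the ρ+ pair, 14 without the ρ0 PDE2 pair, 4 without the ρ0 vector pair and 1 without the ρ0 TIP41 pair, where edgeR had 2 residual degrees of freedom.

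TIS11, which encodes an RNA-binding protein that speeds decay of mRNAs for iron-using proteins, had 26.6, 251, 154 and 136 CPM (gene fragments scaled to library size by TMM) in series 1 and 19.5, 136, 92.7 and 76.4 CPM in series 0. It rose by 0.77 ± 0.10 on the log2 scale (SE; adjusted p = 4.11e-06), higher in 4 of 4 pairs. The siderophore transporter ARN2 had 76.4, 1195, 564 and 457 CPM in series 1 and 72.6, 621, 305 and 260.4 CPM in series 0, a rise of 0.73 ± 0.12 (adjusted p = 0.00113). Its ρ+ pair was nearly level and its ρ0 pairs differed by 0.81 to 0.94 log2 units. The ferric reductase FRE2 had 14.02, 78.7, 46.3 and 32.5 CPM in series 1 and 11.5, 38.2, 23.8 and 22.5 CPM in series 0 (0.80 ± 0.15, adjusted p = 0.0015). SMF3, a vacuolar iron exporter, had 105, 285, 196 and 190.3 CPM in series 1 and 87.6, 162, 123 and 140.3 CPM in series 0 (0.57 ± 0.10, adjusted p = 0.000589). In every called member both series showed the same order of conditions at its ends, lowest in ρ+ and highest in ρ0 vector cells.

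The enterobactin transporter ENB1 rose by 0.53 (adjusted p = 0.00336), BIO5, a transporter of a biotin precursor, by 0.52 (adjusted p = 0.00805), and the siderophore transporter SIT1 by 0.44 (adjusted p = 0.0162). CCC2, the copper ATPase that loads the Fet3 oxidase, rose by 0.45 (adjusted p = 0.02), and the reductase genes FRE5 and FRE3 by 0.47 and 0.43 (adjusted p = 0.0308 and 0.0351). ARN2 and CCC2 share their loci with dubious reading frames, and the locus sums passed as well. Not every branch of iron uptake passed the test. The high-affinity oxidase FET3 changed by 0.36 (adjusted p = 0.0819), its permease partner FTR1 by 0.04, and the cell wall mannoproteins FIT1, FIT2 and FIT3 by 1.28, 0.52 and 0.21, none past the threshold. FIT1 varied most among the pairs, with 7.01, 228, 68.6 and 30.1 CPM in series 1 and 6.77, 56.9, 31.3 and 23.7 CPM in series 0. The plot of the iron regulon by condition shows the ρ0 vector pair at the high end for most members and the ρ+ pair near 0 to 0.5.

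**Figure D3:**
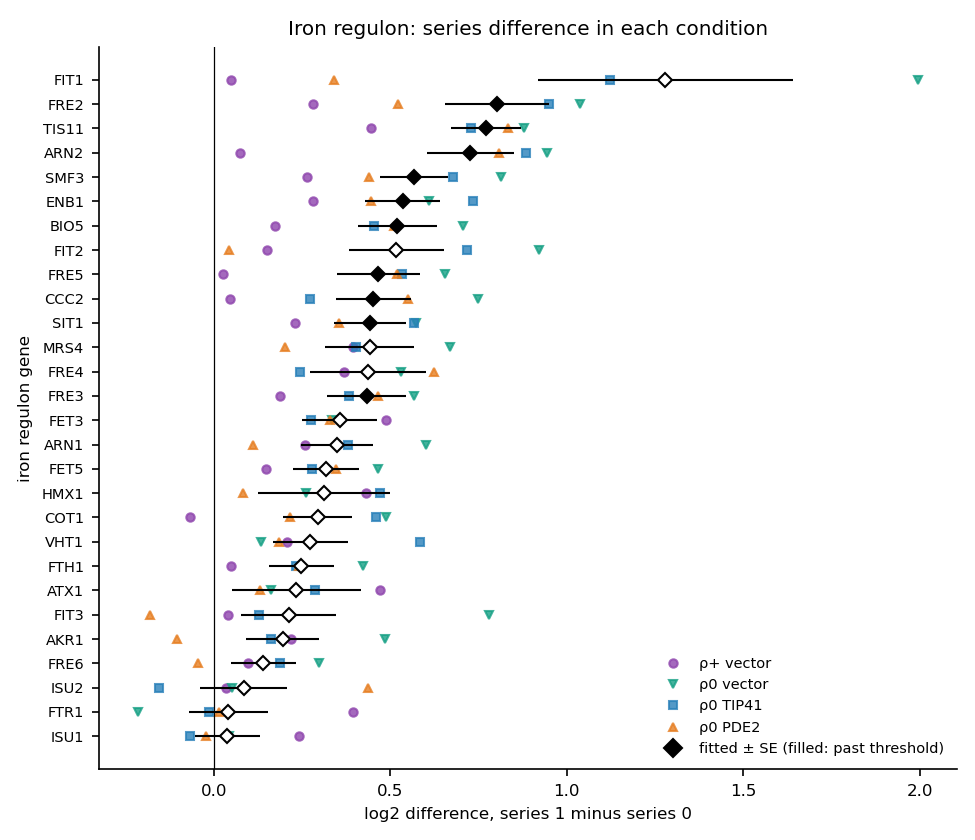
Log2 difference of series 1 minus series 0 (x axis) for each of 28 iron regulon genes (y axis), with 1 coloured symbol per condition pair and a diamond for the fitted value ± SE, filled for the 10 past the threshold. All 28 diamonds lie above 0, and the ρ+ pair (purple circles) lies below the fitted value in most of the filled genes.

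Promoter windows of 3 called iron genes that run from 250 bases before the start to 50 after it (RefSeq, R64) are shown because they hold the heptamer TGCACCC, one form of the Aft1 binding site, on either strand; capitals mark it or its complement. The motif was added after the values were seen. In the ENB1 window its second match overlaps a complement of AGGGG, a stress element that was also searched.
TIS11 (chrXII:416609-416908, minus strand): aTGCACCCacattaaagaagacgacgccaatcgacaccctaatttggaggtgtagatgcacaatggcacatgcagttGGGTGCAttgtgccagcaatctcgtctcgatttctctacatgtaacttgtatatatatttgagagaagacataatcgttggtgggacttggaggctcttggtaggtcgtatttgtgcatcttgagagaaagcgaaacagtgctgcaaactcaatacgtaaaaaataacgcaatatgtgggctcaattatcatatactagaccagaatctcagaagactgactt
ENB1 (chrXV:21262-21561, minus strand): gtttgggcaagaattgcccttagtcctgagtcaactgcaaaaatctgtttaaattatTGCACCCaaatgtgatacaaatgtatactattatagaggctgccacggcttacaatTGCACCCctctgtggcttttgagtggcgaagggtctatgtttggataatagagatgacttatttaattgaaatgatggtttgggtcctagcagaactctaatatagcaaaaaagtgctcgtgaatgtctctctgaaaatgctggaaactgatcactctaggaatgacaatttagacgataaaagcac
SIT1 (chrV:27407-27706, plus strand): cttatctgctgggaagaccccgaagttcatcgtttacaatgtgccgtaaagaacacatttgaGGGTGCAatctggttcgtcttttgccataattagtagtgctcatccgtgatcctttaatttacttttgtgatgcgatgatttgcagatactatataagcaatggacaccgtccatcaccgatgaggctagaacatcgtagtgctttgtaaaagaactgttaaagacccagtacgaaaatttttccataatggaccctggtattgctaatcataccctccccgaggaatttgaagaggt
TIS11 and ENB1 hold 2 matches each and SIT1 holds 1. Over 6007 promoters of this length 78 (1.3%) held the heptamer, against 12 of 28 tested iron genes (42.9%) and 5 of the 10 called ones. Among called genes alone at their locus it was in 5 of 36 promoters of genes higher in series 1 (13.9%) and 0 of 22 of genes lower. The iron genes TIS11, ENB1, SIT1 and FRE5 are among those 5, so this is no separate observation. Windows of ARN2, FRE2, SMF3, BIO5 and FRE3 held no match. The stress element AGGGG, by contrast, was in 19.4% of the higher and 9.1% of the lower promoters, against 21.6% of all. The Gcn4 site TGACTC was in 11.1% of the higher and 13.6% of the lower promoters, against 8.0% of all. Other searched motifs also departed from the share over all promoters. The Ino2/Ino4 site CATGTG was in 16.7% of the higher and 4.5% of the lower promoters, against 6.9%. The sequence AAAAATTT (RRPE) was in 22.2% and 22.7%, against 14.2%, and the Pho4 site CACGTG in 0.0% of both, against 2.9%. None of these shares was tested.

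The other rises among the largest 12 came from several functions. BDH2, an alcohol dehydrogenase relative, had 20.3, 286, 144 and 153 CPM in series 1 and 19.1, 121, 63.7 and 97.1 CPM in series 0, and rose by 0.93 ± 0.14 (adjusted p = 0.00264). Its difference came from the 3 ρ0 pairs, with the ρ+ pair at 0.09. CSS1, which had 116, 157, 134 and 125 CPM in series 1 and 94.9, 92.9, 76.2 and 68.1 CPM in series 0, rose by 0.68 ± 0.10 (adjusted p = 6.69e-05) with no overlap between the series. GAS2, a glucanosyltransferase of spore wall assembly, rose by 0.79 (adjusted p = 0.0111), the glutathione transferase GTO3 by 0.77 (adjusted p = 0.0104), ICY1 by 0.64 (adjusted p = 0.0043) and MHO1 by 0.65 (adjusted p = 0.0455). ZIP2, which acts in meiotic chromosome pairing, rose by 1.59 (adjusted p = 0.00082), but shares its locus with RME3, and the locus sum changed by 0.50 with an adjusted p of 0.202. ANB1, the hypoxic form of eIF5A, had 7.01, 45.2, 14.03 and 12.2 CPM in series 1 and 6.15, 21.2, 9.90 and 6.51 CPM in series 0 (0.78, adjusted p = 0.0462). The coding sequences of ANB1 and HYP2 are 90.9% identical over 474 bases, and whether any fragments were divided between them was not tested.

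Storage carbohydrate genes rose in part. Of 20 tested trehalose and glycogen genes 3 were called higher, where 1.05% of all genes were, and none lower. The list median was 0.20, with 12 of 20 members above 0. By pair the medians were -0.03, 0.46, 0.19 and -0.10, so the list did not rise in the ρ+ and ρ0 PDE2 pairs. TPS2, the trehalose-6-phosphate phosphatase, had 137, 332, 411 and 278 CPM in series 1 and 135, 178, 225 and 214 CPM in series 0 (0.56, adjusted p = 0.0308). GLC3, the glycogen branching enzyme, rose by 0.65 (adjusted p = 0.0296) and GDB1, the debranching enzyme, by 0.53 (adjusted p = 0.0308). In each of the 3 the ρ+ pair differed least, at 0.12 for GLC3, -0.01 for GDB1 and 0.02 for TPS2. Of 35 general stress genes bound by Msn2 and Msn4, only TPS2 passed. IRA1 and IRA2, which restrain Ras and with it protein kinase A, rose by 0.39 and 0.49 (adjusted p = 0.023 and 0.00223), and IRA2 had 151, 194, 139 and 128 CPM in series 1 and 110.3, 123, 96.3 and 106 CPM in series 0. IRA1 and IRA2 were named after their values were seen, as were 4 more: the drug resistance regulator PDR3 rose by 0.43 (adjusted p = 0.015), YGR035C, of the same target list, by 0.60 (adjusted p = 0.0111), the sterol regulator UPC2 by 0.54 (adjusted p = 0.0118) and the glycolytic gene TDH2 by 0.44 (adjusted p = 0.0206).

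Structural RNAs made up a further group of rises, in a list added after the values were seen. Of 44 tested, 5 were called higher, where 1.05% of all genes were, and none lower, while 37 were above 0, with a median of 0.33. SNR30, a small nucleolar RNA needed for 18S rRNA processing, had 75.0, 149, 162 and 141 CPM in series 1 and 52.3, 130, 114 and 84.1 CPM in series 0 (0.48, adjusted p = 0.00537). NME1, the RNA of RNase MRP, rose by 0.83 (adjusted p = 0.0215), and SNR37, SNR86 and SNR10 were the other 3. These RNAs are mostly not polyadenylated. The non-coding share of each library, higher in series 1 in 4 of 4 pairs, takes in the same fragments, so it is no separate observation.

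Falls included genes of translation, nitrogen and citrate metabolism. Of 136 tested cytosolic ribosomal protein genes 6 were called lower, where 0.634% of all genes were, and none higher. The list median was -0.19 against -0.01 for all genes. RPS28B had 84.1, 54.5, 65.5 and 63.2 CPM in series 1 and 124, 92.9, 104 and 91.7 CPM in series 0, a log2 fold change of -0.63 ± 0.10 (adjusted p = 0.000196) with no overlap. RPS9A had 137, 81.1, 83.2 and 82.1 CPM in series 1 and 153, 152, 135 and 147 CPM in series 0 (-0.65, adjusted p = 0.00118). RPL22B, RPL8A, RPL7B and RPS3 changed by -0.69, -0.63, -0.53 and -0.43 (adjusted p = 0.039, 0.0286, 0.00352 and 0.0308). RPS3 is the only one of the 6 without a paralog. In 3 pairs of equal length the coding sequences share 96.7% (RPL7B and RPL7A), 95.1% (RPL8A and RPL8B) and 88.2% (RPS28B and RPS28A) of their bases. Single-paralog values may thus be uncertain, but how fragments were divided between paralogs was not tested. The family as a whole varied by condition: members below 0 numbered 124, 135, 67 and 116 of 136, with medians of -0.17, -0.43, 0.01 and -0.13, so the ρ0 TIP41 pair showed no shift. RPC19, a subunit shared by RNA polymerases I and III, changed by -0.65 (adjusted p = 0.000453), and shares its locus with YNL114C, whose summed count with it gave -0.29 (adjusted p = 0.0992).

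CIT2, the peroxisomal citrate synthase that reports retrograde signalling, had 90.5, 416, 295 and 171 CPM in series 1 and 163, 712, 328 and 327 CPM in series 0. It fell by 0.67 ± 0.12 on the log2 scale (adjusted p = 0.00157), least in the ρ0 TIP41 pair. The aconitase gene ACO1, another retrograde target, had 237, 1085, 844 and 708 CPM in series 1 and 277, 1859.8, 1119.7 and 1129 CPM in series 0 (-0.53, adjusted p = 0.00787). These were the 2 of 11 retrograde targets that passed, with a list median of -0.26. By pair the list medians were 0.13, -0.42, -0.12 and -0.51, so the list did not fall in the ρ+ pair. GLN1, glutamine synthetase, had 1362, 966, 754 and 921 CPM in series 1 and 1418, 1822, 1402 and 1325 CPM in series 0 (-0.60, adjusted p = 0.0119), with the ρ+ pair nearly level. Among 27 targets of nitrogen catabolite repression it was the only fall past the threshold. The general amino acid permease GAP1 rose by 0.57 (adjusted p = 0.035) and the glutamate dehydrogenase GDH2 by 0.49 (adjusted p = 0.0351). ECM13 had 6.31, 56.1, 23.9 and 22.3 CPM in series 1 and 7.998, 89.7, 36.3 and 43.8 CPM in series 0 (-0.71, adjusted p = 0.00381). PAR32, which shares its locus and whose product acts in TORC1 control of ammonium transport, changed by -0.72 (adjusted p = 0.0257), ADR1, the activator of glucose-repressed genes, by -0.62 (adjusted p = 0.00365), and GFD2 by -0.61 (adjusted p = 0.02).

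Over the 49 gene lists, which hold 1130 different tested genes, 34 genes were called (3.01%), against 1.68% of all genes. At such rates a short list may well hold no called gene. Of the lists, 33 had no called member, 9 had 1, and 4 had 3 or more: the iron regulon, trehalose and glycogen metabolism, ribosomal proteins and nitrogen catabolite repression. Nuclear genes of the respiratory chain had 0 of 25 called, but a median of -0.21 and only 2 members above 0. Ribosome biogenesis had 0 of 92 called (median -0.09), mitochondrial ribosomal proteins 0 of 65 (0.01), the proteasome 0 of 35 (-0.04), histones 0 of 11 (-0.17) and phosphate starvation genes 0 of 19 (-0.10). In the cell cycle lists the cyclin gene PCL1 changed by -0.53 (adjusted p = 0.0397) and the forkhead factor FKH2 by -0.37 (adjusted p = 0.0319), each the only one called of its list.

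Arginine synthesis had 0 of 10 genes called although 1 pair differed widely. Its medians were 0.08, 1.12, 0.16 and 0.07 in the 4 pairs, so the ρ0 vector pair differed most. ARG1, argininosuccinate synthetase, had 35.1, 412, 94.6 and 50.03 CPM in series 1 and 46.6, 88.6, 46.2 and 38.5 CPM in series 0, and its fold change of 1.05 ± 0.55 had an adjusted p of 0.573. The arginine genes ARG2, ARG3, ARG4, ARG7, ARG8, ORT1, CPA1 and YER069W did not pass either. The plasmid and marker genes showed no called difference: URA3 changed by 0.21 (adjusted p = 0.438), HIS3 by 0.01 (adjusted p = 0.982), PDE2 by -0.16 (adjusted p = 0.566) and TIP41 by -0.07 (adjusted p = 0.87). In the cells that carried its plasmid PDE2 had 639 CPM in series 1 and 581 CPM in series 0, and TIP41, which shares its locus, had 600.3 CPM in series 1 and 759 CPM in series 0.

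The ρ0 pairs resembled each other more than they resembled the ρ+ pair. Across 4899 genes alone at their locus, Pearson's r between the within-condition differences was 0.23 to 0.36 among the 3 ρ0 pairs and -0.06 to 0.05 between the ρ+ pair and each of them. These are correlations across genes, which are not independent replicates, and no pair of differences shares a library. Spearman's rho over the same genes was 0.21 to 0.33 among the ρ0 pairs and -0.08 to 0.10 with the ρ+ pair. For the 933 genes that share a locus Pearson's r was 0.47 to 0.63 among ρ0 pairs and 0.38 to 0.53 with the ρ+ pair, but Spearman's rho was only 0.24 to 0.35 and 0.01 to 0.16 in that order. Genes of extreme difference, such as HYP2 and DID2, weigh on Pearson's r and not on ranks. The ρ+ pair also had the widest gap in depth, with 1389579 fragments in series 1 and 4884282 in series 0, and the part of depth in this was not tested.

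Fitted on the 3 ρ0 pairs alone, with 2 residual degrees of freedom, 304 of 5809 genes were called (5.23%), 153 higher in series 1 (2.63%) and 151 lower (2.60%). Of the 117 genes higher and alone at their locus, 58 were above 0 in the ρ+ pair, which this fit did not use, and of the 109 lower ones 50 were below 0. The median differences in the ρ+ pair were -0.00132 and 0.0271, against 0.55 and -0.46 in the ρ0 fit. The plot of ρ+ against ρ0 differences accordingly shows points on both sides of 0 in either direction. By function, the ρ0 fit called 15 of 28 iron genes, all higher, 13 of 136 ribosomal protein genes, all lower, and 4 of 20 trehalose and glycogen genes, all higher. Of 17 phospholipid synthesis genes it called PSD1, INO1, CHO1 and ITR1, all higher, and of 25 respiratory chain genes SDH1, COR1 and COX4, all lower. Pdr1 and Pdr3 targets had 5 higher and 1 lower of 18, and structural RNAs had 5 higher and 2 lower (SCR1 and SNR17A) of 42.

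**Figure D4:**
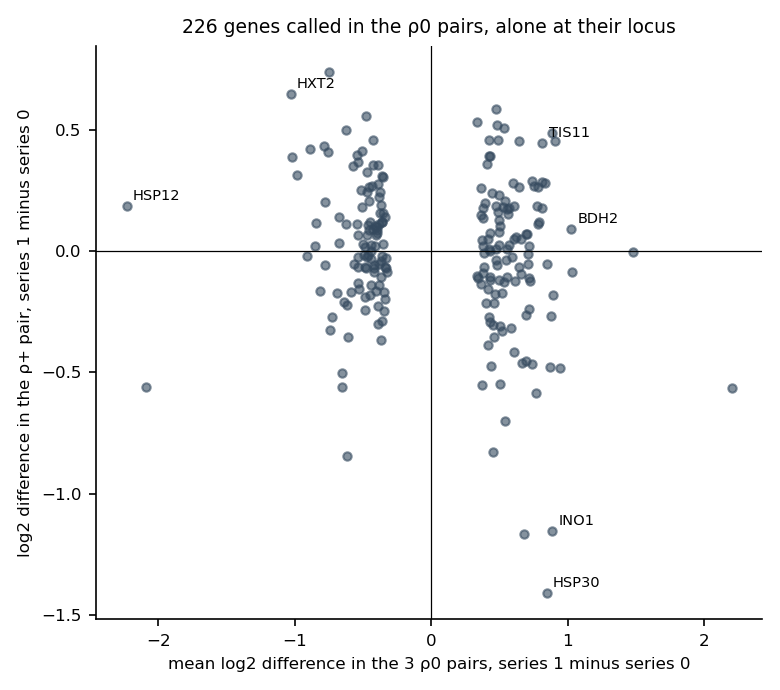
Log2 difference of series 1 minus series 0 in the ρ+ pair (y axis) against the mean difference over the 3 ρ0 pairs (x axis) for the 226 genes that were called in the ρ0 pairs and lie alone at their locus; each point is 1 gene. Of the 117 points right of 0, 58 lie above 0 on the y axis, and of the 109 left of it 50 lie below.

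The difference between the ρ+ and the ρ0 series effect was tested as an interaction, which had 35 called genes (0.6%), 15 with the series effect higher in ρ+ cells (0.257%) and 20 lower (0.343%). ARO9, the aromatic aminotransferase induced by aromatic amino acids, had 231, 6.05, 28.6 and 24.3 CPM in series 1 and 143, 12.2, 101 and 51.5 CPM in series 0. It was higher in series 1 in the ρ+ pair and lower in the 3 ρ0 pairs, and the effects differed by 2.11 ± 0.24 (log2, SE; adjusted p = 1.33e-06, edgeR). CAR2, ornithine aminotransferase of arginine breakdown, had the same form, with 85.5, 25.8, 27.5 and 30.4 CPM in series 1 and 50.04, 49.0, 86.1 and 58.6 CPM in series 0 (1.95, adjusted p = 3.11e-05). Both share their loci. The glucose transporter gene HXT2 had 1268, 82.3, 147 and 134 CPM in series 1 and 809, 224, 274 and 225 CPM in series 0 (1.67, adjusted p = 8.13e-05). ALD6, the cytosolic acetaldehyde dehydrogenase, had 818, 84.7, 120.1 and 167 CPM in series 1 and 489.5, 181, 159.7 and 281 CPM in series 0 (1.49, adjusted p = 0.000139). In all 4 genes the ratio of the ρ+ library to each ρ0 library was higher in series 1.

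HSP30, a plasma membrane stress protein that restrains the proton pump Pma1, went the other way, with 55.4, 1278, 974 and 705 CPM in series 1 and 148, 679, 450.3 and 495 CPM in series 0 (-2.26 ± 0.30, adjusted p = 2.48e-05). INO1, inositol-3-phosphate synthase, had 16.8, 51.6, 56.1 and 43.9 CPM in series 1 and 37.9, 23.8, 32.7 and 25.5 CPM in series 0 (-2.07, adjusted p = 0.000418), so that the ρ0 libraries exceeded the ρ+ library in series 1, and the ρ+ library exceeded them in series 0. HSP12, a stress-induced membrane protein named after its values were seen, had 17.5, 4.03, 8.84 and 71.0 CPM in series 1 and 15.4, 35.7, 36.0 and 229.7 CPM in series 0 (2.14, adjusted p = 0.0286). In the plot of these genes by condition the red and blue symbols change order between the ρ+ and the ρ0 pairs. The interaction rests on a single ρ+ pair, and the ρ+ and ρ0 cells differed in EtBr exposure as well as in mtDNA.

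**Figure D5:**
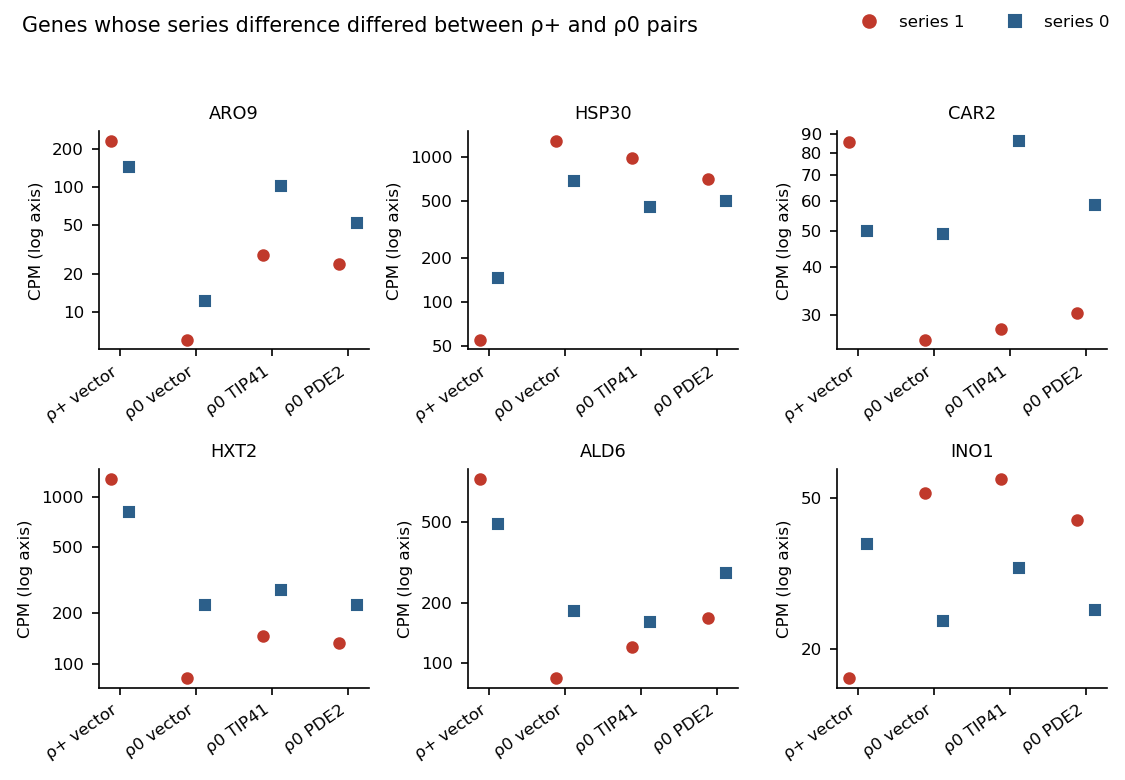
CPM on a log axis (y axis) in each library by condition (x axis) for the 6 genes with the lowest interaction p, with red circles for series 1 and blue squares for series 0. Series 1 is above series 0 in the ρ+ pair and below it in the ρ0 pairs for ARO9, CAR2, HXT2 and ALD6, and the reverse for HSP30 and INO1.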

How the data were processed

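RNA was poly(A)-selected with oligo(dT) beads, made into TruSeq libraries and sequenced from both ends (MiSeq). Alignment by the authors used TopHat2 2.0.14 and the R64-2-1 build, and quantification used Cuffdiff 2.2.1.1, with multi-read and bias correction. The deposited estimated counts per gene and library, which are not all whole, were rounded and tested. The deposited FPKM values, which the authors scaled by Cuffdiff's geometric method, served an alternative with limma 3.58.1. The deposited counts of fragments per library gave depth. Deposited comparisons (fold changes and p-values) of conditions were not used.

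The 4 libraries numbered 1 were compared with the 4 numbered 0 by edgeR 4.0.16 (R 4.3.3): filterByExpr on condition, TMM scaling, a robust quasi-likelihood fit with condition as a block and series as a term (3 residual degrees of freedom), Benjamini-Hochberg adjustment over 5832 genes of 7105 and a threshold of 0.05. SE is the log2 fold change over the square root of F. A shared locus is a merged locus of the deposited annotation with more than 1 gene (1420 genes). The fit was tested on simulated data with 200 changed genes at 1.5-, 2- and 4-fold. For the series effect, 55 of 67 (82.1%), 67 of 67 (100%) and 66 of 66 were recovered in that order, with 20 false calls. For the interaction, 7.46% of 1.5-fold and 23.9% of 2-fold changes were recovered. Changes were set only in genes above a minimum fitted count, with noise drawn from the fit's own dispersions. Recovery in the data may therefore be lower. Labels give the same replicate numbers in all conditions.

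Genes were named by rule: among called protein-coding genes with average log2 CPM of at least 3 and 1 direction in 4 conditions, the 12 largest rises and 12 largest falls; up to 6 members by p of each list with at least 3 called; up to 6 interaction genes by p; and the plasmid, marker and arginine genes. Alternatives were another scaling, DESeq2 1.42.0, other filters, FPKM with pseudocounts of 1 and 0.1, no condition block, thinning to 1388200 fragments, removal of a length trend, and leaving out each pair. The comparison and the gene lists were chosen with earlier results of these data known. Of the deposited genes, 6008 matched RefSeq by locus tag and 115 by symbol. The values of 1 gene that the rule named are not reported here.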

Additional observations from a re-analysis of the deposited data

Results flagged for a closer look

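In 2 of 48 named genes 1 of the 4 within-condition differences stood far from the other 3, where chance gives about 1 in 20. ARN2 differed by 0.0739 on the log2 scale in the ρ+ pair and by 0.81 to 0.94 in the ρ0 pairs. The arginine gene YER069W (ARG5 and ARG6) differed by 1.11 in the ρ0 vector pair and by 0.05 to 0.19 in the others.

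Series effects differed between ρ+ and ρ0 cells in 35 genes by the interaction term (edgeR, adjusted p under 0.05). The 6 with the lowest p were ARO9 at 2.11, HSP30 at -2.26, CAR2 at 1.95, HXT2 at 1.67, ALD6 at 1.49 and INO1 at -2.07, each the log2 series effect in ρ+ cells minus that in ρ0 cells. The ρ+ effect came from 1 pair of libraries in every case.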

How the results depend on the processing

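The count of 98 genes was 44 by DESeq2, 61 with at least 50 fragments in every library, 153 by limma on log2(FPKM + 1), 9 without the condition block, 63 after thinning and 65 over genes alone at their locus with average log2 CPM of at least 3, an alternative added after the data were seen. Leaving out 1 pair gave 20 (without the ρ0 TIP41 pair) to 304 (without the ρ+ pair), with 47 without the ρ0 vector pair and 167 without the ρ0 PDE2 pair. The 61 higher genes were 23 by DESeq2, 38 with at least 50 fragments, 2 without the condition block, 38 after thinning and 6 to 153 leaving out 1 pair. The 37 lower genes were 21 by DESeq2, 67 without a filter, 23 with at least 50 fragments, 68 and 63 by limma at pseudocounts of 1 and 0.1, 7 without the condition block, 23 without genes sharing a locus, 22 over genes alone at the higher level and 14 to 151 leaving out 1 pair. Of the 98 genes, 37 were among DESeq2's calls and 33 among limma's at a pseudocount of 1.

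The 35 interaction genes were 14 by DESeq2, 23 with at least 50 fragments, 16 after thinning and between 24 and 126 leaving out 1 ρ0 pair. The 15 higher ones were 7, 9 and 8 in that order and 13 to 65 leaving out a pair, and the 20 lower ones were 7 by DESeq2, 8 after thinning and 11 to 61 leaving out a pair. Over all 5832 genes the within-condition differences correlated at Pearson's r of 0.19 to 0.51 for every 2 conditions. Spearman's rho was -0.07 to 0.11 for the ρ+ pair with the others and 0.21 to 0.33 among the ρ0 pairs. The model took each replicate number as the same series in every condition, and whether that holds was not tested. Condition effects were 1160, 571 and 114 genes with the series term. Without the replicate block they were 809 genes for ρ0 against ρ+ vector cells (372 lower), 134 for PDE2 (76 higher, 58 lower) and 24 for TIP41 (8 higher, 16 lower). By DESeq2 they were 590 (290 higher, 300 lower), 318 (75 lower) and 61 (16 higher).

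Of 34 called genes named by the rule none changed sign. Without the ρ0 TIP41 pair 26 no longer passed, without the ρ0 vector pair 20 and without the condition block 32. By DESeq2 15 were lost, by limma 22 and 23 at pseudocounts of 1 and 0.1, and after thinning 9. Among those lost both by DESeq2 and by limma were FRE2, GAS2, ANB1, GLC3, MHO1, ECM13 and GFD2. Genes that changed sign had not passed: ARG2 (-0.0227 and -0.0250 by limma), ARG3 (-0.0287 and -0.0499 by limma, -0.066 without the ρ0 vector pair, with 0.73 at the other end without the ρ+ pair), ARG8 (0.00806 without the ρ0 TIP41 pair, 0.00993 without the ρ0 PDE2 pair, -0.134 without the ρ0 vector pair), HIS3 (-0.0863 without the ρ+ pair, 0.0876 without the ρ0 PDE2 pair), CPA1 (0.0341 and 0.0343 by limma) and TIP41 (0.0979 and 0.101 by limma, 0.088 without the ρ0 TIP41 pair, 0.0185 without the ρ0 PDE2 pair, -0.192 without the ρ+ pair). The cause of these shifts was not tested. The smallest library is series 1 of the ρ+ pair; what depth alone did there was not tested.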
